A study of Mus musculus with 6 samples.

Results

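Bach2, its closest relative Bach1 and the small Maf genes Mafk and Mafg were read from the deposited UMI count table of mouse splenic regulatory T (Treg) cells. They were chosen by name, as the rows for these 4 genes of 14098 genes in the table. The study profiled EGFP-positive Treg cells sorted from the spleens of 6 C57BL/6 mice aged 18 to 21 weeks and treated with tamoxifen. The cKO group (n = 3) was Bach2fl/fl Foxp3EGFP-Cre-ERT2 and the WT group (n = 3) was Bach2+/+ Foxp3EGFP-Cre-ERT2. Mice of both groups thus carried the same tamoxifen-inducible Cre with EGFP, expressed from the Foxp3 locus, and by the labels only the floxed Bach2 allele set them apart. The 10x Chromium 3′ chemistry was used, in which a unique molecular identifier (UMI) marks each captured transcript near its 3′ end. The labels do not say which exon is deleted, and a tag outside a deleted part does not report the deletion.

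BACH2 and BACH1 are transcriptional repressors with a BTB domain and a basic leucine zipper. They bind DNA as pairs with small MAF proteins such as MAFK and MAFG, which have a DNA-binding zipper but no activation domain of their own. The sites they bind resemble those of AP-1, and in T cells BACH2 is known to limit AP-1-driven effector programmes and to be high in naive and resting cells. BACH1 is best known as a heme-sensing repressor of heme oxygenase and other antioxidant genes, at which NRF2 also pairs with small MAF proteins.

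In GENCODE mouse release 21 on GRCm38 (mm10), Bach2 (ENSMUSG00000040270.16) spans chr4:32238804-32586108 on the plus strand. Bach1 (ENSMUSG00000025612.5) lies at chr16:87698945-87733346 on the plus strand. Mafk (ENSMUSG00000018143.10) lies at chr5:139791513-139802653 on the plus strand, and Mafg (ENSMUSG00000051510.13) at chr11:120625117-120633600 on the minus strand. Each pair of paralogs has a stretch of coding sequence that is closely alike. The 90-base window of each pair with the most identical bases is shown, because any confusion of reads would be likeliest where sequences are most alike. Capitals mark the bases that differ within the pair, and each window lies in a single exon and is written on the strand of its gene.
Bach2: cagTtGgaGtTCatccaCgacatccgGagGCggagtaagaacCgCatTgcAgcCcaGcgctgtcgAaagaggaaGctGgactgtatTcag
Bach1: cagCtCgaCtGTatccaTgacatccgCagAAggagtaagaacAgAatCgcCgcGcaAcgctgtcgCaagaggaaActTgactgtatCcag
Mafk: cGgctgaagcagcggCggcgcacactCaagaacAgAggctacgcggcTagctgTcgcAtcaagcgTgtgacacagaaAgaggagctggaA
Mafg: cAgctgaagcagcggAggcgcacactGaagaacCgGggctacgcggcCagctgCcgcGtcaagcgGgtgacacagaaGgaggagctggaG
The windows were at chr4:32575330-32575419 (Bach2), chr16:87722492-87722581 (Bach1), chr5:139800199-139800288 (Mafk) and chr11:120629533-120629622 (Mafg). Bach2 and Bach1 were identical at 71 of the 90 bases (78.9%), and Mafk and Mafg at 79 (87.8%). Over the whole annotated transcripts the longest run shared by Bach2 and Bach1 was 20 bases and that shared by Mafk and Mafg was 23 bases. Over the last 1000 bases, where 3′ tags fall, these runs were 10 and 11 bases. Bach2 overlaps the antisense gene Bach2os, which had 18 UMIs in Treg cells, and Mafg overlaps Sirt7 on the same strand, which had 2353 UMIs. How the counting assigned reads of overlapping genes and whether it used the strand is not given in the sources used here, so the Mafg counts in particular are uncertain to that extent.

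The table held 10685 cells with 25389602 UMIs, in 6 sets of barcodes told apart by a suffix from 1 to 6. No column names a sample, so 0 of the 10685 columns could be tied to a mouse or genotype, cKO and WT were not compared, and the genotype of a set was not inferred. The sets held 1641 to 1902 cells and 3998172 to 4786590 UMIs, and 63 barcodes occurred in more than 1 set (126 cells). After filtering, 10547 cells without signs of another cell type were taken as Treg cells (25003986 UMIs, median 2092 per cell). Of these, 78.8% had a UMI of Ikzf2, 78.0% of Izumo1r, 77.8% of Cd3e and 4.85% of Foxp3, the gene the sort was built on. The summed level of 6 erythroid genes in these cells ran from 2.79 to 268.791 UMIs per 1000000 UMIs (CPM) over the sets, highest in set 5, and its part in any result was not tested. Cells are not replicates and no set can be assigned to an animal, so no p-values are given, and all intervals are 95% intervals that cover counting error only.

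Bach2 was sparse in Treg cells and varied about as much between sets as it did between cell states. It had 706 UMIs in 648 of 10547 Treg cells (6.14%), a level of 28.2 CPM (exact Poisson interval 26.2 to 30.4). Of the positive cells, 597 held a single UMI, 45 held 2 and 6 held 3 or more. In sets 1 to 6 its level was 18.8, 24.9, 22.6, 31.8, 36.0 and 36.9 CPM, from 88, 98, 94, 131, 142 and 153 UMIs. Bach2 was thus detected in every set, and the highest level was 1.96 times the lowest. Ordered by level, neighbouring sets had overlapping intervals throughout, while sets further apart did not all overlap. The intervals of set 1 (15.1 to 23.2 CPM), set 3 (18.2 to 27.6 CPM) and set 2 (20.18 to 30.29 CPM) lay below those of set 5 (30.33 to 42.4 CPM) and set 6 (31.3 to 43.2 CPM). That of set 4 (26.5 to 37.7 CPM) lay above that of set 1 and overlapped the others. The share of Treg cells with a Bach2 UMI was 4.49%, 5.26%, 4.98%, 6.70%, 7.75% and 8.02% in sets 1 to 6. After each cell was thinned at random to 1000 UMIs, which left out 305 shallower cells, the shares were 1.41%, 2.42%, 1.97%, 2.70%, 3.59% and 3.20%. Only 4 erythroid cells could serve as a background of stray RNA, and they held no UMI of any member, which allows a share of up to 60.2%.

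Foxp3, which encodes the lineage factor of Treg cells, ran from 19.7 to 22.6 CPM over the same sets, and its highest level was 1.15 times its lowest. The sets also differed in their mix of cell states, which are described below. When each set was given the same mix, Bach2 ran from 18.4 to 38.5 CPM (2.09 times), against 18.9 to 36.6 CPM (1.94 times) with each set's own mix, over cells of at least 1000 UMIs. The spread of Bach2 between sets was therefore as large at a common mix of states. Whether it comes from genotype, animal or library cannot be told apart.

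Bach1 was the least detected of the 4 genes, with 147 UMIs in 146 Treg cells (1.38%) and 5.88 CPM (4.97 to 6.91). Its level in sets 1 to 6 was 5.55, 4.56, 5.52, 5.33, 8.37 and 6.03 CPM, and the intervals of all 6 sets overlapped. The small Maf gene Mafk had 216 UMIs in 212 cells (2.01%), and 7.69, 7.86, 9.61, 6.79, 8.11 and 11.8 CPM in sets 1 to 6. The other small Maf gene, Mafg, had 434 UMIs in 408 cells (3.87%), and 20.1, 16.2, 17.8, 17.5, 16.2 and 15.9 CPM. The intervals of all 6 sets overlapped for each small Maf gene too, and the highest set was 1.74 times the lowest for Mafk and 1.26 times for Mafg. The third small Maf gene, Maff, had 18 UMIs over the activated-marker and resting-marker cells together and was not examined further.

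**Figure D1:**
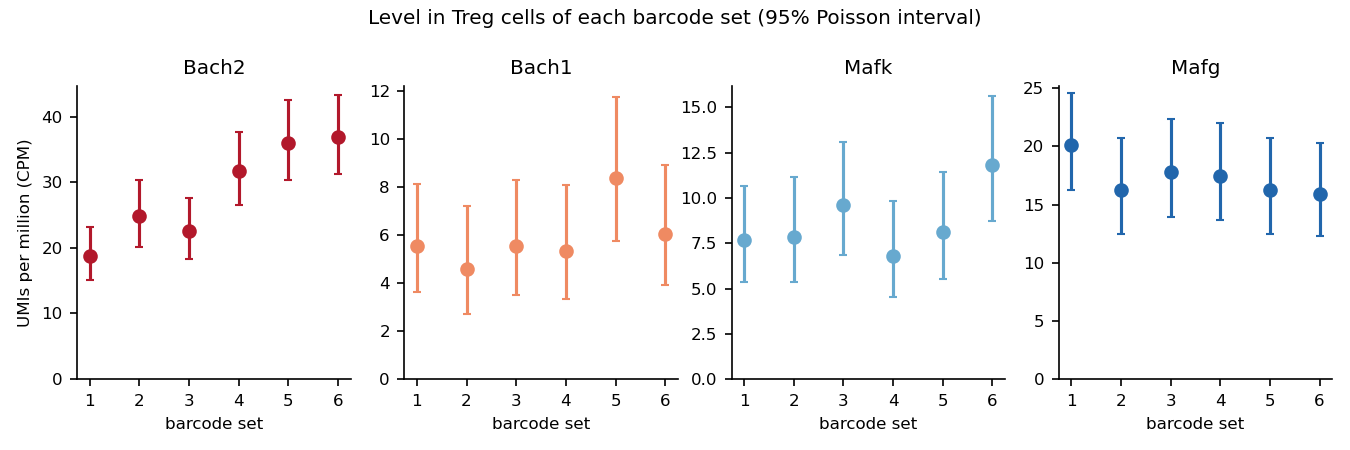
Level of Bach2, Bach1, Mafk and Mafg in the Treg cells of each barcode set, in CPM, with 95% Poisson intervals that cover counting error only. Bach2 runs from 18.8 to 36.9 CPM and Mafg from 15.9 to 20.1 CPM, and the sets carry no genotype.

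The level of Bach2 also moved with cell depth. In quintiles of total UMIs within the Treg cells, from shallow to deep, Bach2 had 18.9, 18.5, 26.3, 36.2 and 30.9 CPM. Over the same quintiles Bach1 had 7.27, 6.73, 7.55, 5.30 and 4.53 CPM, Mafk 9.82, 10.1, 8.24, 7.68 and 8.02 CPM, and Mafg 18.5, 21.0, 16.0, 17.9 and 15.2 CPM. Bach2 thus had its higher values in the deeper quintiles, and the other members did not. The comparison of states is therefore also given at matched depth, and co-detected genes were sought at matched depth, while the other marker panels were not matched.

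Cells were placed in states by how many marker genes had a UMI after thinning to 1000 UMIs. Resting-marker cells (1335 of 10242, 13.0%) had at least 3 of 12 resting genes such as Ccr7, Lef1 and Tcf7, and activated-marker cells (2445, 23.9%) at least 4 of 18 activation genes such as Icos, Klrg1 and S100a4. A further 277 cells had both and 6185 had neither, and no member was a marker. Activated-marker cells had a median of 1980 UMIs and resting-marker cells 2493. Activated-marker cells made up 18.0%, 19.2%, 14.8%, 30.5%, 32.7% and 29.2% of sets 1 to 6, and resting-marker cells between 10.3% (set 5) and 16.3% (set 2). A gene with at least 100 UMIs over both states was called when its level differed by at least 1.5-fold, its interval left out equality and all 6 sets had the same direction.

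Bach2 was lower in activated-marker than in resting-marker Treg cells. Its level was 19.8 CPM (16.4 to 23.8, 116 UMIs) in activated-marker cells, against 42.0 CPM (35.4 to 49.4, 145 UMIs) in resting-marker cells. Cells with both panels had 35.0 CPM, with an interval (21.9 to 53.0) that overlapped both neighbouring states, and cells with neither had 27.9 CPM. In sets 1 to 6 the activated-marker cells had 12.3, 18.1, 8.70, 21.5, 23.5 and 25.4 CPM, and the resting-marker cells 20.3, 29.9, 42.2, 58.3, 54.7 and 63.3 CPM. Within each set the activated-marker value was the lower one, although values of different sets overlapped across the states. This is a log2 ratio of -1.08 (-1.45 to -0.72), called lower, as were 1.4% of the 6803 genes measured. With each set weighed by its own resting-marker level the ratio was -1.29, and with sets and depth quintiles matched it was -1.21 (-1.48 to -0.95). Matched intervals cover the activated-marker UMIs only and take the expected number as fixed. The median gene was at 0.23 on this scale, which puts Bach2 1.31 below it. With ribosomal protein and mitochondrial genes left out of the totals, the median gene was at 0.02 and Bach2 at -1.29. After thinning, 2.29% (1.73 to 2.96) of activated-marker and 3.82% (2.86 to 4.99) of resting-marker cells had a Bach2 UMI, against 4.46% and 10.2% before it. The intervals of the thinned shares overlapped. In set 1 these shares did not differ in the same direction, with 1.21% of activated-marker and 1.19% of resting-marker cells. Over 20 other random draws of the thinning, the ratio ran from -1.41 to -0.84 and Bach2 was called lower in 19. A thinning with a separate random stream per cell, tried later and set aside, gave -1.12, below 0 in 5 of 6 sets and so without a call.

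Mafg had the opposite direction, with less certainty. It had 21.4 CPM (17.8 to 25.5, 125 UMIs) in activated-marker cells, against 14.2 CPM (10.5 to 18.8, 49 UMIs) in resting-marker cells. In sets 1 to 6 activated-marker cells had 33.2, 27.2, 19.1, 20.7, 17.2 and 16.6 CPM, and resting-marker cells 15.9, 13.4, 17.7, 12.1, 11.9 and 11.3 CPM. Each set had its higher value in the activated-marker cells, by little in set 3. The log2 ratio of 0.59 (0.10 to 1.10) is a 1.51-fold difference, just past the 1.5-fold threshold and 0.36 above the median gene, and Mafg was called higher, as were 9.85% of genes. With sets and depth matched the ratio was 0.69 (0.43 to 0.94). The other draws of the thinning gave 0.50 to 0.96 and called Mafg in 11 of 20. It was also not called without set 1 (0.50), set 2 (0.52) or set 4 (0.57), nor when ribosomal protein and mitochondrial genes were taken out of the totals (0.38).

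Bach1 and Mafk had too few UMIs in these states for a call. Bach1 had 5.30 CPM (31 UMIs) in activated-marker and 6.66 CPM (23 UMIs) in resting-marker cells, and the ratio was above 0 in 3 of the 6 sets. Its log2 ratio of -0.33 (-1.15 to 0.52) moved to -0.86 (-1.42 to -0.36) with sets and depth matched, and the other draws gave -0.72 to 0.45. For Mafk the values were 9.41 CPM (55 UMIs) in activated-marker and 8.40 CPM (29 UMIs) in resting-marker cells. Its log2 ratio was 0.16 (-0.51 to 0.87), and all 20 other draws gave lower values, from -0.89 to -0.01, so that no direction can be given. Foxp3 had 21.9 CPM in activated-marker and 21.7 CPM in resting-marker cells.

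**Figure D2:**
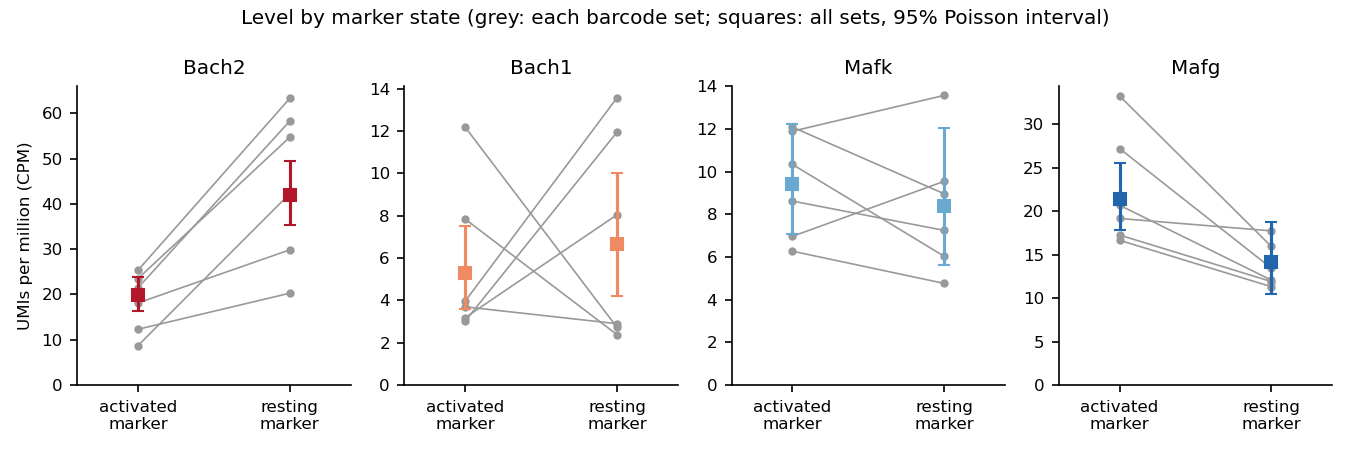
Level of each gene (CPM) in activated-marker and resting-marker Treg cells. Grey lines join the values of each barcode set, and squares give all sets together with 95% Poisson intervals; Bach2 is lower in the activated-marker cells of all 6 sets (19.8 against 42.0 CPM), whereas the Bach1 lines cross.

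Further panels of markers split Treg cells along other axes, each with the cells high for the panel set against the remaining Treg cells. Bach2 was lower in the 539 cells high for an effector panel around S100a4 and Ccr2, with 16.1 CPM (23 UMIs), against 28.9 CPM in the remaining cells. The log2 ratio was -0.85 (-1.51 to -0.25), below 0 in 6 of 6 sets, and 2.13% of 8983 genes were called lower in this comparison. All 20 other draws called it lower too, with ratios of -1.54 to -0.84. This panel shares S100a4 and S100a6 with the activation panel, so the comparison is not independent of that of the states.

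In the 557 cells high for a panel around Ccl5, a chemokine of cytotoxic lymphocytes, Bach2 had 19.7 CPM, against 28.6 CPM in the remaining cells. Its log2 ratio of -0.54 (-1.18 to 0.03) was not called, and other draws called it lower in 8 of 20, where 0.479% of genes were called lower in the main draw. Mafg had 27.6 CPM (35 UMIs) in these Ccl5-high cells, against 16.6 CPM in the remaining cells, a log2 ratio of 0.73 (0.19 to 1.23) above 0 in 6 of 6 sets. It was called higher, as were 2.49% of genes, but in only 1 of the 20 other draws, and the difference is not regarded as held up.

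In the 454 cells high for a panel around Il2ra, the high-affinity IL-2 receptor chain, and Lrrc32, Bach2 had 38.0 CPM, against 27.7 CPM in the remaining cells. The log2 ratio of 0.46 (-0.03 to 0.90) was not called, though it was above 0 in 6 of 6 sets in the main draw. Over the 20 other draws it ran from -0.02 to 0.79. It was above 0 in all sets in 5 of them and called higher in 1. Foxp3 was called higher in the same cells, with 45.0 CPM, against 20.3 CPM, where 0.879% of genes were called higher. The remaining panels (TCR response, interferon, cycling, follicular and Tmem176/Ccr6) gave no call for any member in the main draw, against 5.79%, 1.87%, 3.64%, 2.82% and 1.01% of genes called in either direction. Of the 20 other draws, 3 called Bach2 lower in cycling-high cells and 1 called Bach1 higher there. In interferon-high cells 1 draw called Mafg lower. In follicular-high cells Bach2 was called lower in 1 draw and Mafg higher in 1. Bach2 was at 33.0 CPM in TCR-response-high cells, against 28.0 CPM in the remaining cells. In interferon-high cells it was at 32.1 CPM, against 27.9 CPM, and in cycling-high cells at 22.0 CPM, against 28.8 CPM. In the main draw the intervals of these ratios included 0, as did those of Bach1 and Mafk in every panel.

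**Figure D3:**
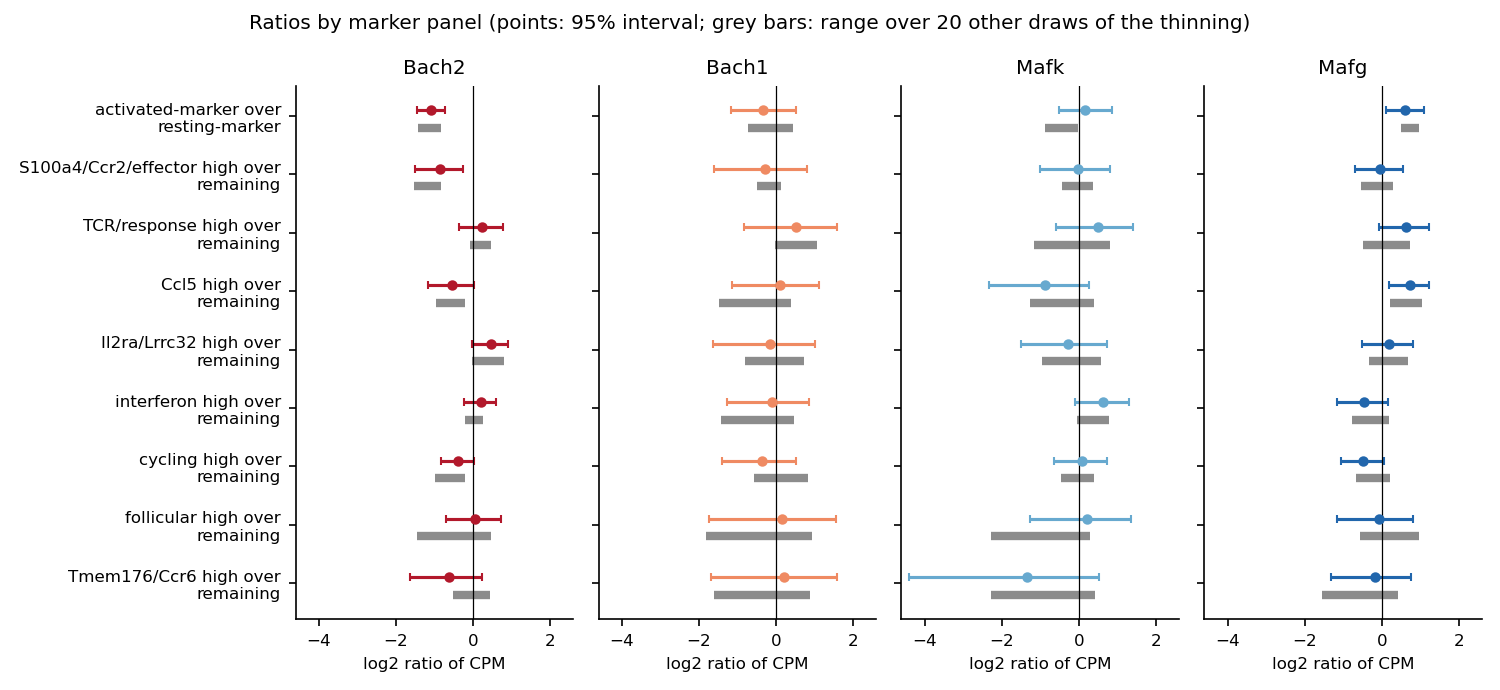
Log2 ratio of CPM between the first-named and the second-named cells of each row, for Bach2, Bach1, Mafk and Mafg, with 95% intervals that cover counting error; grey bars give the range over 20 other draws of the thinning. Bach2 lies below 0 for activated-marker over resting-marker cells (-1.08) and for S100a4/Ccr2-high cells (-0.85) in the main draw and all others.

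Genes found together with each member in the same cell were sought next. UMIs of each gene in cells with the member were compared with the UMIs expected from cells without it in the same set and depth quintile. A gene was called higher when observed UMIs exceeded expected by at least 25%, and lower when expected exceeded observed by as much, with an interval (of the observed UMIs, with the expected number taken as fixed) without 1, the same direction in all 6 sets and at least 100 expected UMIs. Cells with a Bach2 UMI numbered 639 (median 2655 UMIs), against 9603 without (median 2092), and 17.1% of them were activated-marker and 21.3% resting-marker cells, against 24.3% and 12.5% of cells without.

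Cells with Bach2 had more UMIs of Itm2a, and fewer of S100a4, Cxcr3 and Id2, than matched cells without it. Of 2257 genes measured, 9 (0.399%) were higher. Itm2a, a membrane protein of T cells, had 169 UMIs, against 108 expected (1.57-fold, 1.34 to 1.82). The Arf-like GTPase gene Arl5c was at 1.42-fold, the forkhead gene Foxn3 at 1.36-fold, the casein kinase subunit gene Csnk2a1 at 1.33-fold and Lta, which encodes lymphotoxin alpha, at 1.33-fold. Immt, Ash1l and Ncoa7 were also called higher.

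In the same cells 33 genes (1.46%) were lower. S100a4, a calcium-binding protein of motile effector cells, had 197 UMIs, against 406 expected (0.485-fold, 0.420 to 0.558). Its ratio ran from 0.171 to 0.9997 over the sets, so the highest set was hardly below the expected number. Penk, which encodes proenkephalin, was at 0.496-fold and Cxcr3, a chemokine receptor of type 1 effector cells, at 0.499-fold. The protease inhibitor gene Ctla2a was at 0.4995-fold and Id2, an inhibitor of E proteins that supports effector differentiation, at 0.511-fold (127 UMIs, against 248 expected). S100a6 was at 0.520-fold. Lta belongs to the Il2ra/Lrrc32 panel, and S100a4, S100a6 and Cxcr3 are activation markers. Lgals1 (0.623-fold), Glrx (0.685-fold) and S100a11 (0.690-fold) of the activation panel were called lower too. Not every marker of that panel was low. Tnfrsf9 was at 1.17-fold (1.04 to 1.32), Ctla4 at 0.985-fold, Tigit at 0.971-fold and Pdcd1 at 0.959-fold. Of the resting markers, Ly6c1 was at 1.77-fold (98.3 expected UMIs, below the minimum), Igfbp4 at 1.56-fold and Satb1 at 1.39-fold. Ccr7 was at 1.246-fold and Tcf7 at 1.23-fold, but S1pr1 at 1.07-fold, Klf2 at 1.02-fold and Il7r at 0.906-fold. None of these was called. Because called genes include panel markers, the states were held fixed next. With cells also matched for state, 8 of the 9 higher genes and 21 of the 33 lower genes were called again, among them Itm2a (1.52-fold), Penk (0.549-fold), Cxcr3 (0.567-fold), Ctla2a (0.557-fold) and Id2 (0.590-fold). S100a4 (0.641-fold) and S100a6 (0.676-fold) were not. Fewer calls were kept under other settings. Without cells with UMIs of other types and the deepest cells, 3 of the 9 higher and 11 of the 33 lower genes were called again. Leaving out a barcode set kept 2 to 4 of the 9 and 21 to 28 of the 33, fewest without set 5 (2 higher genes) and set 6 (21 lower genes). With each set left out in turn, Itm2a stayed at 1.46 to 1.67-fold, Arl5c at 1.37 to 1.45-fold and Foxn3 at 1.32 to 1.38-fold. Lta stayed at 1.29 to 1.35-fold and Csnk2a1 at 1.249 to 1.38-fold. With all sets, Itm2a, Arl5c, Csnk2a1 and Lta had 108, 104, 111 and 114 expected UMIs, little above the minimum of 100. A lost call of these genes therefore need not mean a changed ratio, and which part of the rule failed was not tested.

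**Figure D4:**
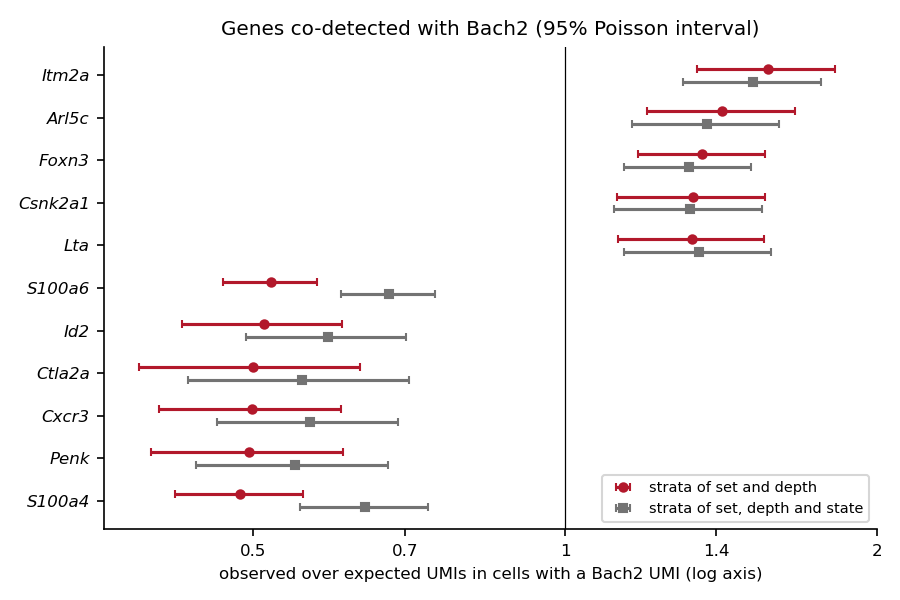
Observed over expected UMIs (log axis) in Treg cells with a Bach2 UMI for called genes named in the text, with 95% Poisson intervals. Red points match cells for set and depth and grey squares also for marker state; S100a4 is at 0.485 and 0.641, and Itm2a at 1.57 and 1.52.

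The other members had few co-detected genes. In the 144 cells with a Bach1 UMI, 2 of 457 genes (0.438%) were higher, the glycolytic enzyme gene Pkm (1.36-fold) and the spliceosome gene Snrpe (1.26-fold), and none (0%) was lower. In the 206 cells with Mafk, 3 of 690 genes (0.435%) were higher: Rps27l (1.33-fold) and Bax (1.30-fold), both known as p53 targets, and the alpha-tubulin gene Tuba1b (1.31-fold), whose near-identical copies make its count uncertain. In the same cells 2 genes (0.29%) were lower, the peroxiredoxin gene Prdx5 (0.735-fold) and the complex I gene Ndufb10 (0.789-fold).

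In the 399 cells with Mafg, 9 of 1352 genes (0.666%) were higher and 3 (0.222%) lower. The highest was Maf, the large Maf factor of effector and follicular T cells, with 205 UMIs, against 133 expected (1.54-fold, 1.34 to 1.77), and it was called again with states matched (1.37-fold). Id2 was at 1.33-fold and was not called with states matched (1.19-fold). Smco4 (1.44-fold), the mitochondrial import gene Tomm5 (1.37-fold), Hnrnpab (1.33-fold) and the translation factor gene Eif5b (1.31-fold) completed the highest 6. The lower genes were 2810474O19Rik (0.701-fold), Trim12a (0.762-fold), whose close paralogs make its count uncertain, and Chchd1 (0.793-fold). These calls rested on few cells. Without cells with UMIs of other types and the deepest cells, no gene called with Bach1 or Mafk was called again, and 1 of the 9 higher and 1 of the 3 lower genes called with Mafg were.

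For no pair of members did the interval of shared cells leave out the number expected at matched depth. Bach2 and Mafk shared 19 cells, against 14.9 expected (ratio 1.27, 0.767 to 1.99). Bach2 and Mafg shared 21 cells, against 28.6 expected (ratio 0.733, 0.454 to 1.12). Bach2 and Bach1 shared 7 cells, against 10.3 expected. The intervals of all 6 pairs included 1, and they are wide, so differences within them were not detectable at this depth.

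The wider family and its partners were then set beside the members, in activated-marker over resting-marker cells. Among 5 measured genes of the CNC and Maf family (12 listed), 2 were called higher and 1 lower, beside 9.85% and 1.4% of all genes in this comparison. Without set 1, 2 or 4 and in several other settings, 1 was called higher. Besides Bach2 and Mafg, Maf was called higher, with 235 CPM in activated-marker and 43.4 CPM in resting-marker cells (log2 2.44). Nfe2l2, which encodes NRF2, had 25.0 CPM in activated-marker and 29.2 CPM in resting-marker cells (log2 -0.23), and Nfe2l1 19.2 and 17.1 CPM (log2 0.17). Neither passed the call rule.

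AP-1 and IRF proteins meet BACH2 at shared sites. Of 6 measured (13 listed), 2 were called higher and none lower, beside 9.85% and 1.4% of all genes. Batf, the AP-1 partner of IRF4, had 189 CPM in activated-marker and 76.1 CPM in resting-marker cells (log2 1.31), and Junb 587 and 301 CPM (log2 0.96). Jun had 96.7 CPM in activated-marker and 135 CPM in resting-marker cells (log2 -0.49), with all 6 sets below 0 but less than 1.5-fold apart. Jund (log2 0.43) and Irf8 (log2 0.74, 5 of 6 sets above 0) were not called. In cells with a Bach2 UMI, Batf was at 0.756-fold and Junb at 0.850-fold of the expected UMIs and Jun at 1.14-fold, none of them called.

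Effector genes that have been studied as BACH2-repressed had the highest median. Of 18 listed genes, 11 were measured, and these 11 were called higher in activated-marker cells, beside 9.85% of all genes. Their median log2 ratio was 2.13, against 0.23 over all genes. Il5 and Il13 had no row, and Tbx21, Ifng, Il4, Il10 and Havcr2 had 8 to 75 UMIs, below the minimum of 100. Gzmb, Areg, Prdm1 and Ccr4, among others, met that minimum through the activated-marker cells alone. Neither the count nor the median therefore gives support of its own. Gzmb, the cytotoxic protease granzyme B, had 118 UMIs in activated-marker cells, against 3 in resting-marker cells (log2 4.54, 2.96 to 6.84). Areg, a growth factor of tissue repair, had 20.9 CPM in activated-marker and 3.18 CPM in resting-marker cells (log2 2.71). Id2 was at log2 2.54, the transcription factor gene Nfil3 at 2.26 and the chemokine receptor gene Ccr8 at 2.20. Other draws called 9 to 11 of them, and leaving out set 5 or 6 left 6 and 7 called. Such genes mark activation in any case, so their direction between these states is not evidence for repression by BACH2. In cells with a Bach2 UMI, only Id2 (248 expected UMIs) and Gata3 (238) of the list met the minimum of 100. Id2 was called lower and Gata3 (0.871-fold) was not, beside 1.46% of 2257 genes called lower. Il1rl1, the IL-33 receptor, was at 0.440-fold on 31.8 expected UMIs, too few for a call. Rora (0.740-fold on 81.1 expected UMIs) and Ahr (0.829-fold on 56.7) were below the minimum too.

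Genes linked to BACH1 were counted in the same way. Of 15 measured heme-handling and NRF2 target genes (21 listed), 1 was called higher and none lower, beside 9.85% and 1.4% of all genes, which is no result about these genes. The called gene was the biliverdin reductase gene Blvra, with 53.0 CPM in activated-marker and 31.0 CPM in resting-marker cells (log2 0.78), and the list's median was 0.11. Blvrb was at log2 -0.56, Txn1 at 0.58, Alas1 at 0.54 and Prdx1 at 0.52, without a call. Hmox1, the classic BACH1 target, had 50 UMIs over both states and was below the minimum. None of 7 corepressor genes (median 0.18) was called, Tbl1xr1 at log2 0.39 and Hdac3 at 0.29 being the highest, with Ncor1 at 0.18 and Gps2 at 0.10. None of 6 measured ubiquitin ligase genes that act on BACH1 or NRF2 (median 0.24) was called either, with Cul3 at log2 0.58, Cul1 at 0.47, Keap1 at -0.33, Fbxo22 at 0.24 and Rbx1 at 0.23. In lists this short, with 9.85% of all genes called higher and a median gene at 0.23, these counts say nothing particular of either list.

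**Figure D5:**
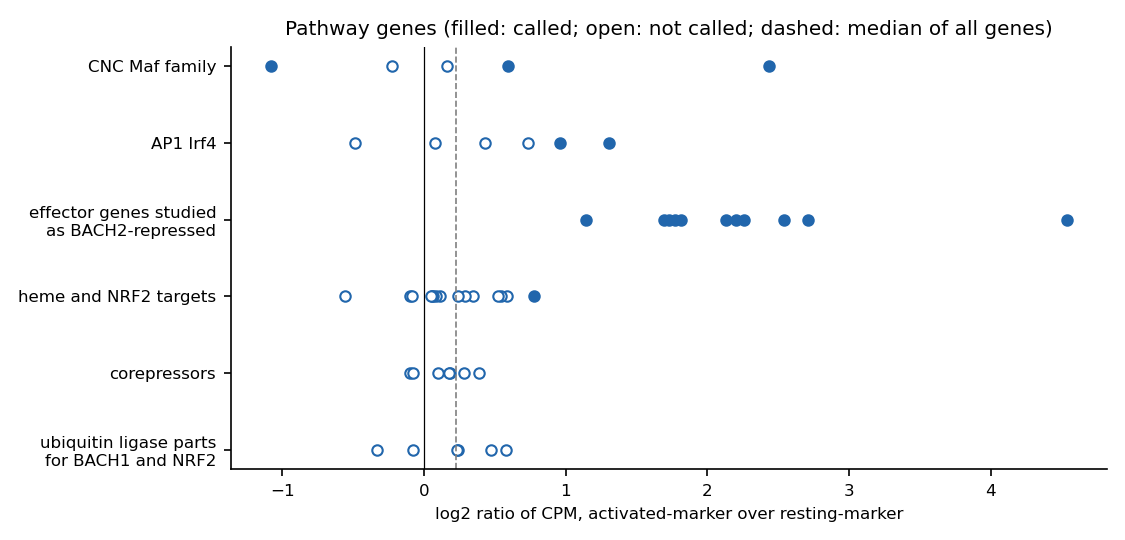
Log2 ratio of CPM in activated-marker over resting-marker Treg cells for the measured genes of 6 lists, with called genes filled. The dashed line is the median of all measured genes (0.23). The effector genes lie between 1.14 and 4.54, and the heme and NRF2 targets between -0.56 and 0.78. Some effector genes met the minimum of UMIs through the activated-marker cells alone.

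Promoters were taken as the 250 bases before and 50 after each RefSeq gene start (GRCm38.p6). They were searched for TGANTCA, a loose form of the core shared by AP-1 and BACH sites, with any middle base. This pattern, called the core below, reads the same on both strands. It was present in 2425 of 27025 promoters (8.97%) and in none of those of the 4 members. Of the 33 genes that were lower in cells with Bach2, 26 had a promoter in the table and 5 of these held the core (19.2%): Ctla2a, Glrx, S100a11, Gng2 and Hspa5. Of the genes higher in cells with Bach2, 1 of 6 with a promoter held it (16.7%, Foxn3), and of those called with Mafg 0 of 7 higher and 0 of 2 lower genes did. Of the effector list 4 of 16 held it (25%): Prdm1, Ccr4, Havcr2 and Gzmb. The middle base was A in Prdm1 and T in Gng2 and Havcr2, so these are looser matches. The counts are small, no direction is read from them, and a match is a description of letters, not a bound site. Stretches of 87 bases around the core are shown for 2 genes lower in cells with Bach2 and 2 effector genes, with the core in capitals and written on the strand of the gene.
Ctla2a: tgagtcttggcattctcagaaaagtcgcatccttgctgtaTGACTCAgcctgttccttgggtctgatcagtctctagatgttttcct
Glrx: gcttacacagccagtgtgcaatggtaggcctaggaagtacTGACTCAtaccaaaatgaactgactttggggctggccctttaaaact
Prdm1: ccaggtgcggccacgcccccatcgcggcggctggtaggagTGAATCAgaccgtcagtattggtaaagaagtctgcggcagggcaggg
Gzmb: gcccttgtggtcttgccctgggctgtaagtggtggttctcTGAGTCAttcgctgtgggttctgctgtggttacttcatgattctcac
They lie at chr13:60936708-60936794 on the minus strand (Ctla2a), chr13:75839747-75839833 on the plus strand (Glrx), chr10:44458750-44458836 on the minus strand (Prdm1) and chr14:56262346-56262432 on the minus strand (Gzmb). The core ended 123, 92, 42 and 52 bases before the annotated start of Ctla2a, Glrx, Prdm1 and Gzmb.

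The genes whose level moved most like a member over the 4 states in the 6 sets (24 points that share libraries) were listed last, with no reading of function. For Bach2 they were Eef2 (r = 0.76), Gm10036 (0.75), Igfbp4 (0.74), Snhg12 (0.74) and Gm17541 (0.74) of 4849 genes. Igfbp4 is itself a resting marker. For Bach1 the first was Ccndbp1 (0.77), for Mafk Stx8 (0.87) and for Mafg Psmc6 (0.89). In 20 other draws of the thinning Igfbp4 came among the first 5 for Bach2 in 3, Gm10036 and Gm17541 in 1 each and no other gene of the 20 in any, so these ranks were not stable.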

How the data were processed

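The deposited table holds whole UMI counts per gene and cell, made by the authors with mm10 and, per the submitters' processing notes, FastQC, cutadapt, HISAT2, Cell Ranger and Seurat, with no versions or settings. A second deposited table, in natural log units per the authors' normalisation, was used only for which 10464 cells it holds.

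The cell filter required 200 or more genes and less than 10% of UMIs from mitochondrial genes, which 10680 of 10685 cells passed. Those with UMIs of at least 3 B, myeloid or CD8/NK marker genes, or over 50% erythroid UMIs, were set apart (133 cells). No doublet caller was run. Levels are UMIs summed over cells per 1000000 (CPM). Intervals are exact Poisson for levels, Clopper-Pearson for shares and conditional binomial for ratios. Ratios within a set had 0.5 UMIs added. The intended edgeR test of cKO over WT was not run, since no column names a sample. States came from 1 random thinning (seed 1). A thinning with a separate random stream per cell was tried after these values had been seen and was set aside. Named list genes are up to 5 per list with the largest absolute log2 ratio, named co-detected genes the 6 highest and 6 lowest called, and named similar genes the 5 highest correlations of log2(CPM + 10). Genes that these rules name but that are withheld are not reported here. Genes named outside these rules were chosen after their values were seen. Members, lists and tests were chosen with earlier results of these data known. The code was tested on simulated data. Tools were Python 3.11.15, numpy 2.4.6, scipy 1.17.1 and matplotlib 3.10.9.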

Additional observations from a re-analysis of the deposited data

Results flagged for a closer look

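The 133 cells set apart as other cell types (median 2022 UMIs) were not used in the comparisons, and all 4 genes had UMIs there above the limit of 3 counts that a count of 0 allows. They held 18 UMIs of Bach2, 5 of Bach1, 6 of Mafk and 9 of Mafg. In the 103 B cells Bach2 was at 63.2 CPM (36.8 to 101.2, 17 UMIs), against 28.2 CPM in Treg cells, and 16 of the 103 had a UMI (15.5%). The 32 myeloid cells had 2 UMIs of Bach2 and 6 of Mafg (47.5 CPM, 17.4 to 103). The 4 erythroid cells had none, which allows a share of up to 60.2%. Foxp3, as a measure of stray or doublet RNA, had 2 UMIs in B cells (7.44 CPM) and 2 in myeloid cells (15.8 CPM), against 21.3 CPM in Treg cells. A cell with markers of another type may be a doublet with a Treg cell, and the part of Treg RNA in these values, the myeloid value of Mafg included, was not tested.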

How the results depend on the processing

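Bach2 stayed called lower in activated-marker cells under each listed alternative, with log2 ratios of -1.29 to -0.91, and -1.17 to -0.99 leaving out each set. In the thinning that was set aside it was at -1.12, below 0 in 5 of 6 sets and not called, while Mafg was called at 0.95. That thinning also called Bach2 lower in follicular-high cells (-1.49) and Mafg lower in cycling-high cells (-0.61). Mafg was not called with thinning to 500 UMIs (0.86), stricter panels (0.32), panels without their 3 most abundant markers (0.47) or totals without ribosomal protein and mitochondrial genes. Those totals gave 364 genes higher and 257 lower, against 670 and 95, moved the median gene to 0.02, and put Bach2, Bach1, Mafk and Mafg at 45.6, 9.50, 14.0 and 28.1 CPM.

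Counts of co-detected genes, some of which lay near the minimum of 100 expected UMIs, depended more on the settings, and the cause was not tested. For Bach2 they were 21 higher and 110 lower with at least 30 expected UMIs, 4 and 15 without cells with UMIs of other types and the deepest cells, and 3 to 8 and 30 to 48 leaving out each set. For Bach1 they were 9 and 17, 0 and 1, and 0 to 6 and 0 to 2, with 1 higher in depth deciles and 1 lower without shared barcodes. For Mafk they were 18 higher and 25 lower at 30 expected UMIs, 1 lower without other-type and deepest cells, 4 lower within states, and 1 to 7 and 1 to 2 leaving out each set. For Mafg they were 55 and 18, 14 higher without shared barcodes, and 4 to 14 and 1 to 5 leaving out each set. The other draws, depth matching, the shared-barcode setting and the set-aside thinning were added after seeing the data. No paired analysis was possible because no column ties cells to a mouse or a replicate number. States were compared within each barcode set, where the Bach2 ratio ran from -2.17 to -0.70.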
